A study of Mus musculus with 8 samples.

Results

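The genes described here encode EF-hand calcium-binding proteins of retinal neurons: the calbindins *Calb1* (calbindin), *Calb2* (calretinin) and *Scgn* (secretagogin), parvalbumin (*Pvalb*), the calmodulin-like CaBP genes *Cabp1*, *Cabp2*, *Cabp4* and *Cabp5*, and the Necab genes *Necab1* and *Necab2*. They are 10 of the 17500 genes in the deposited table and were chosen by name around *Calb1*, because *Calb1* differed between the genotypes in these same libraries. All 10 passed the filter on low counts, which kept 16797 genes. Their RNA was measured by RNA-seq of whole retina with 1 poly(A)-selected library per mouse, 4 from controls (M833, M894, M896, M898) and 4 from Rbfox2-/- mice (M893, M901, M902, M909). All mice were of C57BL/6J background and 6 months old. By the study's methods, Rbfox2-/- stands for Rbfox2 fl/fl mice with a tamoxifen-inducible Cre, given tamoxifen by gavage as young adults, and controls were age-matched Rbfox2 fl/+ mice. The Cre is not restricted to the retina or to a cell type. The labels, which call the first group Rbfox2 KD, give tamoxifen 4 months before for every sample, controls included, whereas the methods name tamoxifen or corn oil vehicle without saying which the control retinas received, so an effect of the genotype and one of the drug cannot be told apart here.

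An EF hand is a helix-loop-helix fold that holds a calcium ion. Proteins built from it either take up calcium as buffers, as calbindin, calretinin and parvalbumin do, or change shape on binding it and act on partners, as calmodulin and the CaBP proteins do. In the retina these proteins are classical markers: calbindin labels horizontal cells (HCs) and some amacrine cells (ACs) and retinal ganglion cells (RGCs), calretinin labels ACs and RGCs, secretagogin labels cone bipolar cells, and CaBP5 labels rod bipolar and some cone bipolar cells. Rbfox2 is an RNA-binding protein that regulates splicing and mRNA stability through the element UGCAUG or its core GCAUG.

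The libraries held between 160630226 and 211283591 counts on genes, and 3 counts equal no more than 0.0189 CPM (counts scaled to a common library size after TMM normalization), counting error only. Every member had at least 1359 counts in every library. *Rbfox2* itself had between 144 and 157 CPM in the controls and between 53.6 and 59.4 CPM in the Rbfox2-/- libraries, so each library matched its label, and the transcript remained at 37.7% of the control mean. M901 and M902 stood apart on the first principal component (40.5% of the variance), and these were also the libraries with *Xist*, the transcript of the inactive X chromosome (275967 and 277506 counts, against 312 to 426 elsewhere). Both are Rbfox2-/- libraries, and no control had such *Xist* counts. The labels do not give the sex of the mice. A difference by *Xist*, and so probably by sex, thus coincides in part with genotype in every comparison of all 8 libraries. The setting without M901 and M902 holds only libraries with low *Xist*. M909 stood apart on the second principal component (19.2%). The summed CPM of 12 RGC markers was 890.0 in the control M833 against 1347 to 1394 in the other controls. Results are therefore also given without M833 and without M901 and M902 where that changes them. Fold changes are log2 values for Rbfox2-/- relative to control from the negative binomial model of edgeR, with the standard error (SE). Because the members were chosen with this contrast known, *Calb1* is described without a test. For the other 9 members the adjusted p of edgeR's quasi-likelihood test (Benjamini-Hochberg over all 16797 genes) states where the gene stands among all genes, and lends the choice no support.

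Of the 9 members other than *Calb1*, none had an adjusted p under 0.05 by edgeR's quasi-likelihood test, which called 0.0655% of all genes (11 of 16797; 0.0298% lower in Rbfox2-/- retinas), by DESeq2, which called 3.07% of the genes to which it gave an adjusted p, or by edgeR's likelihood ratio test, which called 0.976%. *Calb1* is left out of this count, since its difference in this contrast led to the choice of the family. At an unadjusted p under 0.05, which 13.3% of all genes reached, there were *Cabp4*, higher in Rbfox2-/- retinas (6.42% of all genes), and *Cabp5* and *Necab2*, lower (6.87% of all genes). The median log2 fold change of these 9 genes was 0.022 and that of all genes 0.002. Of the 10 fold changes, 5 were positive and 5 negative.

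**Figure D1:**
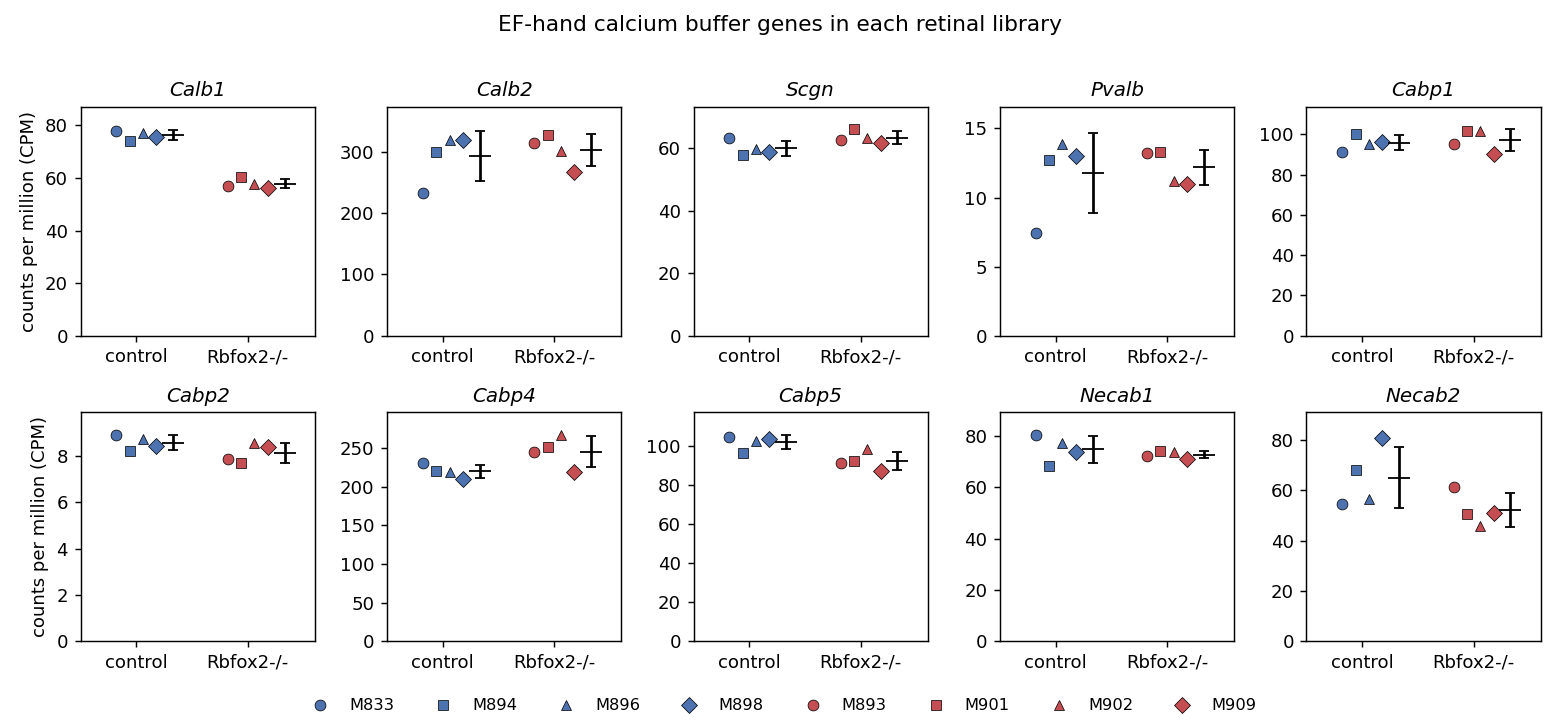
CPM of the 10 EF-hand genes in each library, with controls in blue and Rbfox2-/- in red, a symbol for each mouse, and black bars for the mean and SD of 4 libraries. The 4 red *Calb1* points lie between 56.3 and 60.5 CPM, below every blue one, while in the other 9 panels the groups overlap.

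*Calb1* (chromosome 4 of GRCm38, 15881264 to 15908064, plus strand, 11 exons) encodes calbindin, the buffer by which HCs are usually stained. It had 78.0 CPM in M833, 73.9 in M894, 77.3 in M896 and 75.7 in M898. The Rbfox2-/- libraries had 56.3 CPM in M909, 56.8 in M893, 60.5 in M901 and 57.9 in M902. All 4 Rbfox2-/- values were thus below all 4 control values, a separation found in 7.03% of all genes tested in either direction and in 3.39% in this direction. The means were 76.2 ± 1.84 CPM in controls and 57.9 ± 1.86 CPM in Rbfox2-/- retinas (SD, n = 4 each), or 75.9% of control, with a log2 fold change of -0.40 (SE 0.036). The difference between the means was larger than the SD within either group. The fold change lay between -0.42 and -0.38 with each mouse left out in turn and was -0.43 without M901 and M902. In bulk tissue, fewer cells of a type and less RNA per cell cannot be told apart. The study reports that calbindin staining of retinal sections did not appear to change with *Rbfox2* downregulation. Staining shows protein rather than RNA, and no count of calbindin-stained cells is given.

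The list of 8 other HC markers was read beside *Calb1*. Their summed level was between 599.9 and 643 CPM in controls and between 594 and 613.9 CPM in Rbfox2-/- retinas, and all 8 were detected in every library. The sum rested mainly on *Tfap2b*, *Sept4* and *Prox1*, with control means of 238, 158 and 152 CPM. Those of *Lhx1*, *Onecut1*, *Onecut2* and *Onecut3* were 8.44, 6.05, 11.6 and 10.2 CPM, so the sum says little of these genes. None of the 8 had an adjusted p under 0.05 by edgeR. Before adjustment, edgeR's quasi-likelihood test put *Lhx1* (higher) and *Megf11* (lower) under 0.05. The median log2 fold change of the list was -0.055. *Onecut1*, an HC and RGC transcription factor, was the 1 marker of the 8 with all Rbfox2-/- libraries (5.39 to 5.64 CPM) below all controls (5.91 to 6.21 CPM), with a log2 fold change of -0.13 (SE 0.060, adjusted p = 0.382). The HC fate factors *Lhx1* and *Prox1* had log2 fold changes of 0.18 (SE 0.076, adjusted p = 0.353) and -0.062 (SE 0.050, adjusted p = 0.622). *Lhx1* is the marker most restricted to HCs among these, and its highest values, 10.4 CPM in M893 and 9.91 in M909, were in Rbfox2-/- retinas. *Onecut2* and *Onecut3* had -0.20 (adjusted p = 0.424) and 0.092 (adjusted p = 0.523), *Tfap2b*, also an AC gene, -0.048 (adjusted p = 0.662), *Sept4* -0.049 (adjusted p = 0.588) and *Megf11*, which spaces HC mosaics, -0.14 (adjusted p = 0.317). Each of these differences was smaller in size than that of *Calb1*. Since *Calb1* was chosen for its difference in this contrast, its larger size follows in part from the choice and sets it apart from no marker. The difference between *Calb1* and each marker was not tested.

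**Figure D2:**
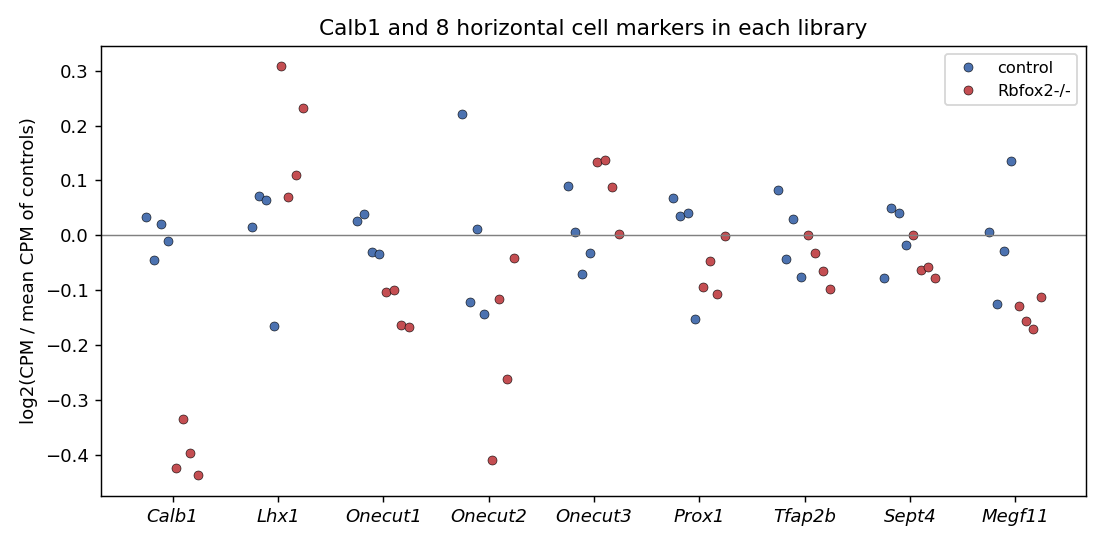
Log2 ratio of the CPM of each library to the mean CPM of the controls, for *Calb1* and 8 HC markers, with controls in blue and Rbfox2-/- in red. The red *Calb1* points lie together below all blue ones, the red points of *Lhx1* and *Onecut3* lie above 0, and those of the other markers lie near or below it, with *Onecut2* widely spread.

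The coding sequence (783 bases) and the 3′UTR (3301 bases) of *Calb1* were searched for the Rbfox element on the transcript strand, as TGCATG and as its core GCATG, which lies within it. Neither is present in either region. Of 737 other 3′UTRs within 10% of that length, 95.8% held GCATG and 69.3% held TGCATG. Introns were not searched, and the absence of these letters says nothing of whether the protein binds elsewhere in the transcript. The same search found neither form in *Scgn*, *Pvalb* or *Necab2*, whose 3′UTRs are between 400 and 552 bases long, a length at which 28.3% to 37.9% of other 3′UTRs hold GCATG.

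By profile over the 8 libraries, the genes most like *Calb1* among 13755 genes with a mean of at least 1 CPM were *Tprn*, *Nebl*, *Lamp5*, *B3galt5* and *Thsd7b*, measured by the root mean square (RMS) difference of log2 CPM after centring each gene. The RMS was 0.0812 for *Tprn* and 0.0903 for *Thsd7b*. In all 5 the Rbfox2-/- libraries lay below the controls, with levels of 73.75% of control for *Tprn*, 83.9% for *Nebl*, 84.3% for *Lamp5*, 70.55% for *B3galt5* and 82.3% for *Thsd7b*. This follows from the choice, since *Calb1* separates the groups. The closest members were *Cabp5*, with an RMS of 0.135 and rank 182, and *Cabp2*, with 0.173 and rank 1194.

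*Calb2* (chromosome 8, 110137502 to 110168210, minus strand) encodes calretinin, the closest relative of calbindin among the members. It had 233 CPM in M833, 300.1 in M894, 320.0 in M896 and 320.35 in M898. The Rbfox2-/- libraries had 267 CPM in M909, 314 in M893, 328 in M901 and 302 in M902. The groups overlapped, and M833 and then M909 were the lowest of all 8 libraries. The means were 293 ± 41.5 CPM in controls and 303 ± 26.03 CPM in Rbfox2-/- retinas (SD, n = 4 each), with a log2 fold change of 0.047 (SE 0.10, adjusted p = 0.879). It was -0.052 without M833 and -0.016 without M901 and M902, so that its sign turned with the libraries used.

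*Calb2* is the 1 member of the calbindins with the full element in its 3′UTR (546 bases; 16.1% of other 3′UTRs of similar length hold it). The site lies 253 bases after the stop codon, at chr8:110142817-110142842 on the minus strand, and is shown with the 10 bases on each side and the element in capitals.
Calb2 3′UTR: tccgctgcgaTGCATGagttccttcg

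*Scgn* (chromosome 13, 23953456 to 23991214, minus strand), secretagogin, belongs to the calbindin branch of the EF-hand genes. It had 63.4 CPM in M833, 57.8 in M894, 59.6 in M896 and 58.8 in M898. The Rbfox2-/- libraries had 61.6 CPM in M909, 62.6 in M893, 66.1 in M901 and 63.2 in M902. All Rbfox2-/- values were above 3 of the controls, and M833 was within their range. The means were 59.9 ± 2.43 and 63.4 ± 1.95 CPM (SD, n = 4 each), with a log2 fold change of 0.082 (SE 0.040, adjusted p = 0.411). *Pvalb* (chromosome 15, 78191114 to 78206400, minus strand), the fast buffer parvalbumin, had 7.45 CPM in M833, 12.7 in M894, 13.9 in M896 and 13.01 in M898. It had 11.01 CPM in M909, 13.2 in M893, 13.3 in M901 and 11.2 in M902. M833 was again the lowest library. The log2 fold change was 0.050 (SE 0.17, adjusted p = 0.93) with all libraries and -0.12 without M833, and the spread between controls, 24.9% of their mean, was the widest of the 10 genes. *Pvalb* lies 884.1 kb from *Rbfox2* on chromosome 15, with 12 tested genes between them. Of these, 0 had an adjusted p under 0.05 by edgeR and 2 had an unadjusted p under 0.05, both lower. Of all genes tested, 13.3% reached this unadjusted p, and 6.87% of all genes reached it in the lower direction. The stretch holds few genes and was not tested against others, so no conclusion is drawn from the 2 in 12.

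*Calb2* and *Pvalb* varied between libraries along with the RGC markers. The summed CPM of the 12 RGC markers was 890.0 in M833, 1347 in M894, 1371 in M896 and 1394 in M898 among the controls. It was 1079 in M909, 1249 in M902, 1360.4 in M893 and 1415 in M901 among the Rbfox2-/- libraries. The library with the lowest sum, M833, thus also had the lowest *Calb2* and *Pvalb*, and M909 was second lowest in all 3 measures. The genotypes overlapped in the sum, and none of the 12 markers had an adjusted p under 0.05 by edgeR. No correlation was computed, and the part of RGC content in the values of either gene was not tested.

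**Figure D3:**
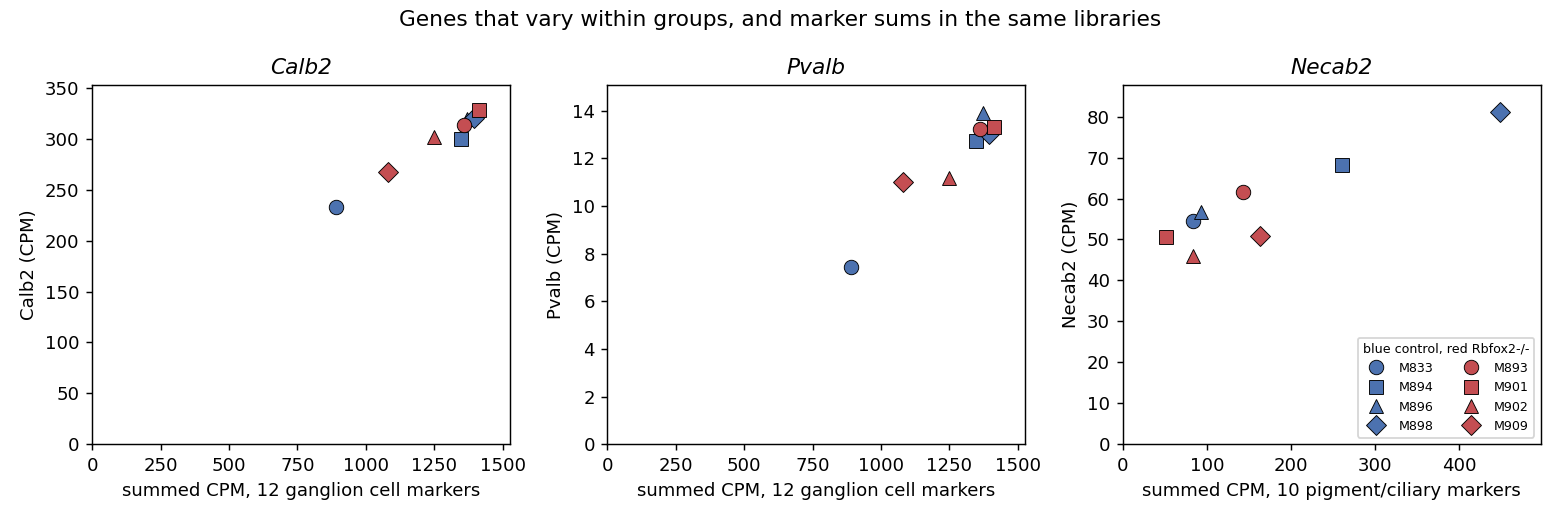
CPM of *Calb2* and *Pvalb* against the summed CPM of 12 RGC markers, and CPM of *Necab2* against the summed CPM of 10 pigment epithelium and ciliary body markers, 1 point per library with controls in blue and Rbfox2-/- in red. M833 (blue circle) and M909 (red diamond) lie lowest in the first 2 panels, and M898 and M894 (blue diamond and square) lie highest in the third.

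The CaBP genes encode calmodulin-like sensors that modulate calcium channels. *Cabp4* (chromosome 19, 4135423 to 4144033, minus strand) acts at photoreceptor terminals on the calcium channel that drives transmitter release. It had 231 CPM in M833, 219.7 in M894, 218 in M896 and 209.7 in M898. The Rbfox2-/- libraries had 219.1 CPM in M909, 244 in M893, 251 in M901 and 266 in M902. Of the 4 Rbfox2-/- libraries, 3 were above all controls, and M909 was within their range. The means were 219.7 ± 8.74 and 245 ± 19.7 CPM (SD, n = 4 each), a log2 fold change of 0.16 (SE 0.058, unadjusted p = 0.0201, adjusted p = 0.297). It was 0.075 without M901 and M902 and 0.062 (SE 0.054) with 1 surrogate variable, a covariate estimated from the data. It was higher without M833, at 0.18, and without M909, at 0.21 (SE 0.043, edgeR adjusted p = 0.0905). The unadjusted p of *Cabp4* was under 0.05 in 13 of 17 settings. The summed CPM of 8 rod markers, 61966 to 66660 in controls, was 68707 in M901, 69893 in M902, 67907 in M909 and 64304 in M893. That of 8 cone markers was higher in every Rbfox2-/- library (1023 to 1155) than in any control (958.7 to 962). Of single genes, 7.03% separated the groups in either direction. *Opn1sw*, the most abundant cone marker, had a mean of 354 CPM in controls and 426 CPM in Rbfox2-/- retinas. Of the 8 fold changes 7 were positive and 1 negative, that of *Opn1mw* (-0.23, SE 0.094, edgeR adjusted p = 0.353). The part of the rod and cone markers in the level of *Cabp4* was not tested. The exons of *Cabp4* overlap those of *Gpr152* on the opposite strand over 131 bases. *Gpr152* had 164 CPM in controls and a log2 fold change of 0.17 (SE 0.055), and since the strand setting of the counting is not given in the sources used here, reads of the overlap cannot be assigned.

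*Cabp5* (chromosome 7, 13398132 to 13408887, plus strand), the sensor of rod bipolar cells, had 105 CPM in M833, 96.8 in M894, 103 in M896 and 104 in M898. It had 87.7 CPM in M909, 91.3 in M893, 92.8 in M901 and 98.7 in M902. Of the 4 Rbfox2-/- libraries, 3 were below all controls, and M902 lay above the control M894. The means were 102 ± 3.70 and 92.6 ± 4.59 CPM (SD, n = 4 each), a log2 fold change of -0.14 (SE 0.043, unadjusted p = 0.0076, adjusted p = 0.239), and the unadjusted p stayed under 0.05 in 17 of 17 alternative settings, the adjusted p in none. The summed CPM of 12 bipolar cell markers was 1963 to 2102 in controls and 1915 to 1996 in Rbfox2-/- retinas, with overlap.

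*Cabp1* (chromosome 5, 115168689 to 115194381, minus strand), also called caldendrin in its long form, had between 91.2 and 100.2 CPM in controls and between 90.2 and 102 CPM in Rbfox2-/- retinas. Its log2 fold change came to 0.022 (SE 0.046, adjusted p = 0.879), and its sign turned in 5 of 17 settings. *Cabp2* (chromosome 19, 4081578 to 4087340, plus strand), best known from hair cells of the ear, was the scarcest member by its mean, at 8.22 to 8.92 CPM in controls and 7.69 to 8.57 CPM in Rbfox2-/- retinas. Its log2 fold change was -0.079 (SE 0.060, adjusted p = 0.599). The 4 CaBP genes therefore had 2 positive and 2 negative fold changes, and the lowest adjusted p was 0.239.

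The CaBP genes are the members whose coding sequences hold the full element, and the stretch is shown because it is the same place in the genes. TGCATG is present in the coding sequence of *Cabp1*, *Cabp2* and *Cabp4*, against 30.9% of 14921 coding sequences, and is absent from that of *Cabp5*. The 30 bases around it in *Cabp1* and their best ungapped match in the other genes all start at a codon boundary and lie within 1 exon: exon 4 of *Cabp1* (chr5:115175437-115175466, minus strand), exon 4 of *Cabp2* (chr19:4085615-4085644, plus strand), exon 3 of *Cabp4* (chr19:4138607-4138636, minus strand) and exon 3 of *Cabp5* (chr7:13401287-13401316, plus strand), with the element in capitals.
Cabp1: cgggacctggggaacTGCATGcgcaccatg
Cabp2: cgggagctgggtgccTGCATGcggacactg
Cabp4: cgcgagctaggtgacTGCATGcggacgctg
Cabp5: aaggatttgggcaatctcatgagaacgatg
Of the 30 bases, *Cabp2* shares 23 with *Cabp1*, *Cabp4* 22 and *Cabp5* 19. The genes with the element (*Cabp1*, *Cabp2* and *Cabp4*) had log2 fold changes of 0.022, -0.079 and 0.16, and *Cabp5*, without it, -0.14. The letters are a description of related coding sequences and not a site of binding.

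The Necab genes encode proteins with an EF hand near the N terminus that bind neuronal partners. *Necab1* (chromosome 4, 14952245 to 15149794, minus strand) had between 68.3 and 80.6 CPM in controls and between 71.1 and 74.4 CPM in Rbfox2-/- retinas. Every Rbfox2-/- value lay within the range of the controls. The log2 fold change was -0.042 (SE 0.049, adjusted p = 0.751). *Necab1* lies 731.5 kb from *Calb1* on chromosome 4, with 1 tested gene between them, which had an adjusted p above 0.05. It holds the full element in its 3′UTR of 3648 bases, 3368 bases after the stop codon (chr4:14952511-14952536, minus strand), where 74.1% of other 3′UTRs of similar length hold one.
Necab1 3′UTR: tctatctaaaTGCATGttactataga

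*Necab2* (chromosome 8, 119446719 to 119472640, plus strand) had 54.5 CPM in M833, 68.3 in M894, 56.7 in M896 and 81.0 in M898. It had 50.9 CPM in M909, 61.5 in M893, 50.5 in M901 and 46.0 in M902. Again, 3 of the 4 Rbfox2-/- libraries were below all controls, and M893 was above the controls M833 and M896. The means were 65.1 ± 12.2 and 52.2 ± 6.58 CPM (SD, n = 4 each), a log2 fold change of -0.32 (SE 0.13, unadjusted p = 0.0323, adjusted p = 0.34). With all libraries and no covariate this was the member nearest to *Calb1* in size, but with a wider SE (0.13 against 0.036). Markers of the pigment epithelium and ciliary body, tissues that border the retina, were highest in the same controls: their summed CPM was 449 in M898 and 261 in M894, against 83.4 in M833, 92.6 in M896 and 51.1 to 163 in Rbfox2-/- retinas. All 10 of these markers were detected above the filter. Their part in the level of *Necab2* was not tested. The fold change was -0.20 without M898, -0.22 without M901 and M902 and -0.12 (SE 0.13) with the surrogate variable. It was further from 0 in other settings, at -0.40 without M833, -0.38 without M896 and -0.41 without M893. The unadjusted p of *Necab2* was under 0.05 in 10 of 17 settings.

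**Figure D4:**
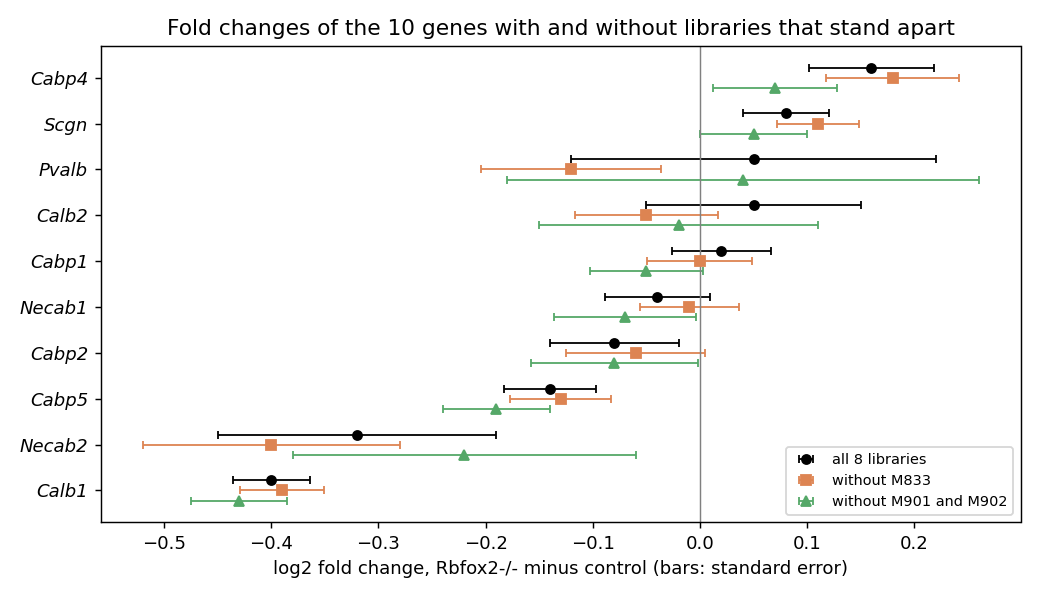
Log2 fold changes of the 10 genes (Rbfox2-/- relative to control, bars show the SE) with all 8 libraries, without M833, and without M901 and M902. *Calb1*, which was chosen by this contrast, stays near -0.40 in all 3. *Calb2* and *Pvalb* move across 0 without M833, and *Calb2* also without M901 and M902. *Cabp4* and *Necab2* move toward 0 without M901 and M902, and away from 0 without M833.

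Levels of different genes were compared per length, as CPM per kb of merged exons. Over all 8 libraries the order was *Calb2* (171 ± 18.6), *Cabp4* (66.1 ± 5.59), *Cabp5* (38.6 ± 2.54), *Scgn* (38.1 ± 1.71), *Necab2* (28.0 ± 5.44), *Cabp1* (16.5 ± 0.763), *Necab1* (14.1 ± 0.716), *Calb1* (13.8 ± 2.06), *Pvalb* (11.5 ± 2.02) and *Cabp2* (6.19 ± 0.312; mean CPM per kb ± SD, n = 8). *Calb2*, the most abundant, was 2.58-fold above *Cabp4* per kb of merged exons, which are 1743 and 3518 bases long. The size of this gap depends on the length used. Their longest coding sequences are both 813 bases, and the deposited FPKM had closer means of 208 and 162. Neighbours in this order were compared over the 8 libraries by an exact paired permutation test, two-sided, with Benjamini-Hochberg adjustment over 9 pairs; the smallest p it allows is 0.00781. Of the 7 pairs without *Calb1*, 6 had an adjusted p under 0.05, and *Cabp5* and *Scgn* did not differ beyond their spread (ratio 1.01, adjusted p = 0.727, exact permutation). The pairs with *Calb1* are given by genotype and without a test, since the libraries pool the genotypes by which it was chosen.

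The place of *Calb1* in this order differed between the genotypes. Per kb it was at 15.7 ± 0.380 in controls, above *Necab1* in 4 of 4 libraries, and at 11.9 ± 0.384 in Rbfox2-/- retinas (SD, n = 4 each), below *Necab1* in 4 of 4. It was above *Pvalb* in 4 of 4 controls and in 2 of 4 Rbfox2-/- libraries. The values of *Cabp5* and *Scgn* crossed as well: *Cabp5* was above *Scgn* in 4 of 4 controls and in 1 of 4 Rbfox2-/- libraries. These crossings are a description. The length matters for *Cabp1*, whose merged exons (5832 bases) join 7 annotated transcripts, the longest of 3914 bases: it had rank 6 at 16.5 CPM per kb, but rank 3 by the deposited FPKM, at 81.7, and rank 4 by coding length. By the longest transcript, the coding length or the FPKM, *Calb1* stood above *Necab1* over the 8 libraries.

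**Figure D5:**
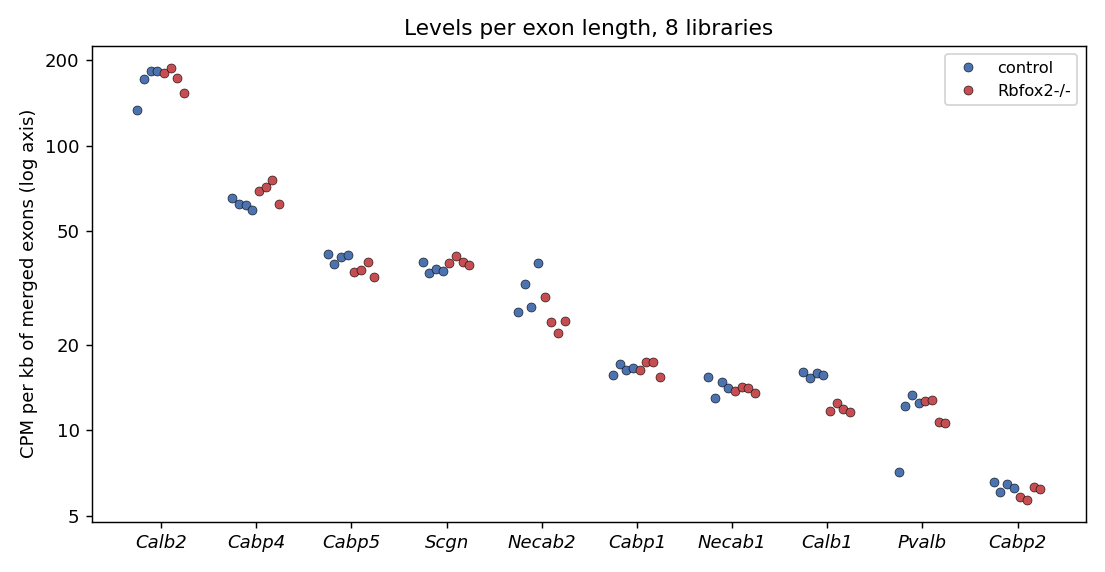
Level of each gene in each library in CPM per kb of merged exons, on a log axis, ordered by the mean of 8 libraries, with controls in blue and Rbfox2-/- in red. *Calb2* lies highest and *Cabp2* lowest, and the red *Calb1* points lie apart from the blue ones, level with *Pvalb*.

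Related genes were read from lists drawn up by name. Of 62 other EF-hand genes (calmodulins, neuronal calcium sensors, S100 proteins, secretory pathway proteins and others), 57 were in the table and tested. None had an adjusted p under 0.05 by edgeR or DESeq2. At an unadjusted p under 0.05 there were 2 higher (*Calml3* and *Rcvrn*) and 3 lower (*Sdf4*, *Cib2* and *Efhd2*), 8.77% against 13.3% of all genes, and the median log2 fold change was -0.037. Without M833 there were 2 higher and 14 lower, where 17.6% of all genes reached this p, so that the count depends on that library. *Sdf4*, a calcium-binding protein of the Golgi lumen, had the lowest p of the list and a log2 fold change of -0.097 (SE 0.030, adjusted p = 0.257). *Calml3*, a calmodulin-like gene, was at 0.193 to 0.673 CPM in controls and at 0.619 to 1.01 CPM in 3 Rbfox2-/- libraries, with 11.5 CPM in M909, so its fold change rests on 1 library. *Rcvrn*, recoverin of photoreceptors, had 892 to 1019.9 CPM in controls and 1002 to 1115 CPM in Rbfox2-/- retinas, with a log2 fold change of 0.13 (SE 0.054, adjusted p = 0.359).

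Of 25 genes for calcium entry, release and clearance, none had an adjusted p under 0.05 by edgeR, but 8 had an unadjusted p under 0.05 (3 higher and 5 lower, 32.0% of the list against 13.3% of all genes), with a median log2 fold change of -0.085. *Itpr1*, the inositol trisphosphate receptor that releases calcium from the endoplasmic reticulum, had 90.4 to 94.6 CPM in controls and 103 to 109 CPM in Rbfox2-/- retinas, without overlap, and a log2 fold change of 0.20 (SE 0.031, adjusted p = 0.0623). *Cacna1a*, the pore of P/Q-type calcium channels, had 86.2 to 95.5 CPM in controls and 74.1 to 81.0 CPM in Rbfox2-/- retinas, also without overlap, and -0.20 (SE 0.042, adjusted p = 0.116). *Slc24a2*, the cone-type sodium/calcium-potassium exchanger, had 135 to 143 and 114 to 127 CPM, and -0.18 (SE 0.040, adjusted p = 0.155). DESeq2 called 5 genes of this list, these 3 among them. No test of the list against other genes was made.

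Of the other marker lists, AC markers (15 genes) summed to 1604 to 1688 CPM in controls and 1559 to 1659 CPM in Rbfox2-/- retinas. Müller glia markers (8 genes) summed to 6300.1 to 6997 and 5621 to 6359 CPM. Both sums overlapped between the groups. Blood and vessel markers (4 genes tested) summed to 40.7 to 52.5 and 31.4 to 40.1 CPM, without overlap, and lens markers (6 genes) to 38.2 to 49.96 and 34.1 to 43.5 CPM, with overlap. None of 89 markers tested had an adjusted p under 0.05 by edgeR. At an unadjusted p under 0.05 there were 9 higher and 14 lower (25.8%, against 13.3% of all genes). The number lower was 21 without M833, 9 without M898, 8 without M894, 6 without M901 and 5 without M902. The share of all genes that were lower at this p moved as well. It was 6.87% with all libraries, 9.46% without M833, 4.51% without M898, 5.71% without M894, 4.54% without M901 and 4.63% without M902. The balance of higher and lower markers thus turned with single libraries, in settings where that of all genes also changed. The part of the marker shifts in the level of *Calb1* was not tested.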

How the data were processed

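Total RNA of whole retinas was made into poly(A)-selected libraries and sequenced as paired reads. By the study's methods, the authors aligned the reads to mm10 with STAR, discarded reads with more than 1 position and ran HTSeq to obtain fragments per gene, deposited as raw counts in 1 table. The methods name both a RefSeq and an Ensembl annotation, and the strand setting is not given in the sources used here. The submitters' processing notes also list CASAVA 1.8.2 and edgeR. The deposited FPKM values, which the authors scaled to gene length and library size, served only as an alternative for the order of levels. The authors' fold changes, p-values, FDR and adjusted signals of their own comparison (14 columns) were not used. Every gene of the table has at least 5 counts in at least 4 libraries.

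Low counts were removed with filterByExpr (edgeR 4.0.16 in R 4.3.3), and the remaining genes were normalized by TMM and compared with the quasi-likelihood test without covariates, 4 against 4 libraries, with Benjamini-Hochberg adjustment over all genes tested. The SE of a log2 fold change was derived from its F statistic (size of the change over the root of F). On simulated data with 200 genes changed by a factor of 2, the procedure recovered 92.5% of them and called 12 others, and it called 1 of 16727 genes when none was changed. No pair of replicates agreed within sampling noise, so each library counted as 1 replicate. Depth was 160630226 to 211283591 counts per library, so that the spread between mice limits precision more than counting. Alternatives tried were limma-voom (limma 3.58.1), the likelihood ratio test of edgeR, DESeq2 1.42.0, upper-quartile and DESeq2 size factors, no filter, at least 10 counts in every library, 1 surrogate variable (sva 3.50.0), leaving out each mouse, leaving out M901 and M902, and, for levels, other gene lengths.

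Gene positions, exons, coding sequences and 3′UTRs came from GENCODE release M21 (GRCm38, the assembly of mm10) by symbol, with the APPRIS principal transcript of each gene, and sequences from its transcript file. No genome sequence or protein table was used here. The members and all lists were chosen with earlier results of these data known. Named are the members, *Rbfox2*, the HC markers, the 3 genes with the lowest p in the other lists described, and the 5 genes most like *Calb1*. *Rcvrn*, *Efhd2*, *Gpr152*, *Opn1sw* and *Opn1mw* were named after their values were seen. The marker lists covered HCs, ACs, RGCs, bipolar cells, rods, cones, Müller glia, pigment epithelium and ciliary body, blood and vessel, and lens. *Hba-a1*, *Hbb-bs* and *Hbb-bt* had no row in the table used here, and *Septin4* was matched by its older symbol *Sept4*.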

Additional observations from a re-analysis of the deposited data

Results flagged for a closer look

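The summed CPM of the 12 RGC markers in the control M833 was 890.0, against 1346.7 to 1394.3 in the other 3 controls, a gap to the nearest of them that made up 0.906 of the range of the group (Dixon's test). *Calb2* and *Pvalb* were also lowest in M833. It was the 1 case among 42 groups of 4 libraries examined (the 10 members, *Rbfox2* and the 10 marker sums in each genotype), where chance gives about 2.1.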

How the results depend on the processing

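None of the 9 members other than *Calb1* had an adjusted p under 0.05 in any setting. Counted with *Calb1*, which was chosen by this contrast so that its call is no sign of stability, the number was 1, or 0 without M901 and M902. No other EF-hand gene passed in any setting. Among the calcium flux genes the count of 0 became 5 with DESeq2 (*Atp2a3*, *Cacna1a*, *Cacna2d4*, *Itpr1* and *Slc24a2*) and 2 with the likelihood ratio test (*Cacna1a* and *Itpr1*), and among the markers 9 with DESeq2 (*Glul*, *Gnat1*, *Isl1*, *Opn1sw*, *Pcp2*, *Pde6b*, *Rgs5*, *Sag* and *Th*). These are all genes that the tool called, named for that reason after their values were seen. Over all genes the count was 11 with the quasi-likelihood test, 465 with DESeq2, 164 with the likelihood ratio test, 5 with 1 surrogate variable and between 5 and 35 with 1 mouse left out. The sign turned for genes near 0: *Calb2* had a log2 fold change of -0.052 without M833 and -0.016 without M901 and M902, *Pvalb* -0.12 without M833, and *Cabp1* -0.032 with 1 surrogate variable, -0.049 without M901 and M902, -0.003 without M833, -0.002 without M901 and -0.001 without M902. With 1 surrogate variable *Calb1* was at -0.44, *Cabp4* at 0.062 and *Necab2* at -0.12. The fold change of *Rbfox2* lay between -1.43 and -1.38. The signs of the other 7 members held in all 17 alternatives. For the order of levels, the same 9 pairs, neighbours by merged exons, were compared in every setting. Counted were pairs with the same gene higher and an adjusted p under 0.05 by the exact permutation test. There were 6 with merged exons, 8 with the longest transcript and 7 with the coding length or the deposited FPKM. With 1 mouse left out there were 6 to 7. A pair whose direction turned is not counted, whatever its p, and pairs with *Calb1* are counted. No paired analysis was possible because the mouse numbers do not pair mice across the genotypes. With 4 mice per group, differences under about 0.1 on the log2 scale lay within the SE of the more variable members, *Calb2*, *Pvalb* and *Necab2*.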
